A study of Homo sapiens with 20 samples.

Results

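Basal and epithelial lineage transcription factors are the subject here: TP63, SOX4, SOX9, SOX10, FOXC1, KLF4, KLF5, TFAP2A, TFAP2C and GRHL2. They are 10 of the 60271 genes in the deposited count table and were picked by gene symbol. The cells were MDA-MB-468, an established human line labelled epithelial and triple negative breast cancer, so every value describes 1 line. EMT (epithelial-mesenchymal transition) was induced with EGF at 50 ng/mL, given for 12 h, 24 h, 48 h or 72 h after 24 h without serum, and a control group received no EGF. The labels do not state separately whether the control wells were kept without serum for the same time, which limits what a difference from the control measures. All groups were seeded and harvested together, with 4 biological replicates per group and 20 RNA-seq libraries in all. RNA came from whole cultures, so fewer cells that express a factor and less of its RNA per cell cannot be told apart.

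These factors help to set the identity of basal and other epithelial cells. TP63 encodes p63, the defining factor of basal layers in stratified epithelia and in the mammary gland, which drives basal keratins and adhesion genes. SOX9, SOX10 and SOX4 belong to the SOX family, which bind DNA through an HMG box. SOX9 is found in luminal progenitor cells of the breast, SOX10 in neural crest, myoepithelial and basal-like breast cancer cells, and SOX4 in progenitors and in cells that undergo EMT. FOXC1, a forkhead factor, is a known marker of basal-like breast cancer. KLF4 and KLF5 are zinc finger factors of epithelia, with KLF4 tied to growth arrest and differentiation and KLF5 to proliferation of basal cells. TFAP2A and TFAP2C, the AP-2 factors alpha and gamma, act in epidermis, neural crest and mammary epithelium. GRHL2 activates genes of cell junctions and is known to oppose EMT.

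Total counts per library ranged from 15611961 to 25856953. Levels are given as CPM (counts scaled to the size of the library) after TMM normalization, which scales libraries to a common set of genes. Groups were compared by edgeR's quasi-likelihood test, and each adjusted p is its Benjamini-Hochberg value over the 16522 genes that passed a filter on low counts, with a threshold of 0.05. Genes are described as upregulated, downregulated, higher or lower between groups where they passed it. Intervals are 95% intervals of the log2 fold change, and SD is over the 4 libraries of a group. All time points were compared with the same 4 control libraries. Mitochondrial transcripts held a mean of 10.9% of counts in the control, 9.41% at 12 h and 15.0% at 72 h, and their part in the results below was not tested. The epithelial label was matched by EPCAM at 138 to 225 CPM and CDH1 at 83.0 to 186 CPM in all libraries. PGR had 0 counts in all 20 libraries, while ESR1 (1.91 to 6.53 CPM) and ERBB2 (7.79 to 24.6 CPM) were detected at low levels. Several defining markers of other cells were at or near 0, with at most 8 counts of PTPRC, 2 of CD3E, 1 of COL3A1 and 3 of CDH5 in any library, and no count of MS4A1 or TYR. The summed level of 5 immune markers nevertheless lay between 3.97 and 4.47 CPM in the control and between 27.8 and 32.8 CPM at 72 h, through CD68 and CD14. For 6 fibroblast markers, nearly all of it COL1A1, the sum was 5.12 to 7.90 CPM in the control and 13.1 to 15.0 CPM at 72 h, and for 4 endothelial markers it was 2.40 to 4.07 and 3.74 to 4.53 CPM. The endothelial sum was highest at 48 h (4.49 to 6.07 CPM), mostly through PECAM1 (up to 114 counts in a library) and KDR (up to 37). For 7 melanocyte and Schwann cell markers it was at most 1.31 CPM in any library.

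Of the 10 factors, 9 passed the filter and were tested. SOX10 had 0 counts in all 20 libraries. With a limit of 3 counts, this allows up to 0.116 CPM in the deepest and 0.192 CPM in the shallowest library, and up to 0.00744 CPM over the sum of all libraries, where these limits cover counting error only. At 12 h, 8 of the 9 were called, with 5 upregulated and 3 downregulated, where 69.4% of all genes tested were called (32.9% higher, 36.5% lower). At 24 h the count was again 5 upregulated and 3 downregulated, against 58.8% of all genes (29.2% higher, 29.6% lower). At 48 h it was 4 and 2, against 45.8% (24.0% higher, 21.8% lower), and at 72 h 5 and 2, against 61.6% (30.6% higher, 31.0% lower). Since so many genes were called, a call alone sets no factor apart. Against the control, scaling mattered most at 12 h, where with library size alone the median of all genes was -0.34 and 30.2% of called genes were higher, in place of 47.4%, and the factors counted 5 higher and 4 lower. The median log2 fold change of the 9 was 0.76, 0.31, 0.22 and 0.88 at 12, 24, 48 and 72 h, where the median of all genes was -0.05, -0.01, 0.01 and -0.01. The factors were chosen with earlier results of these data known, so this difference is a description only.

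**Figure D1:**
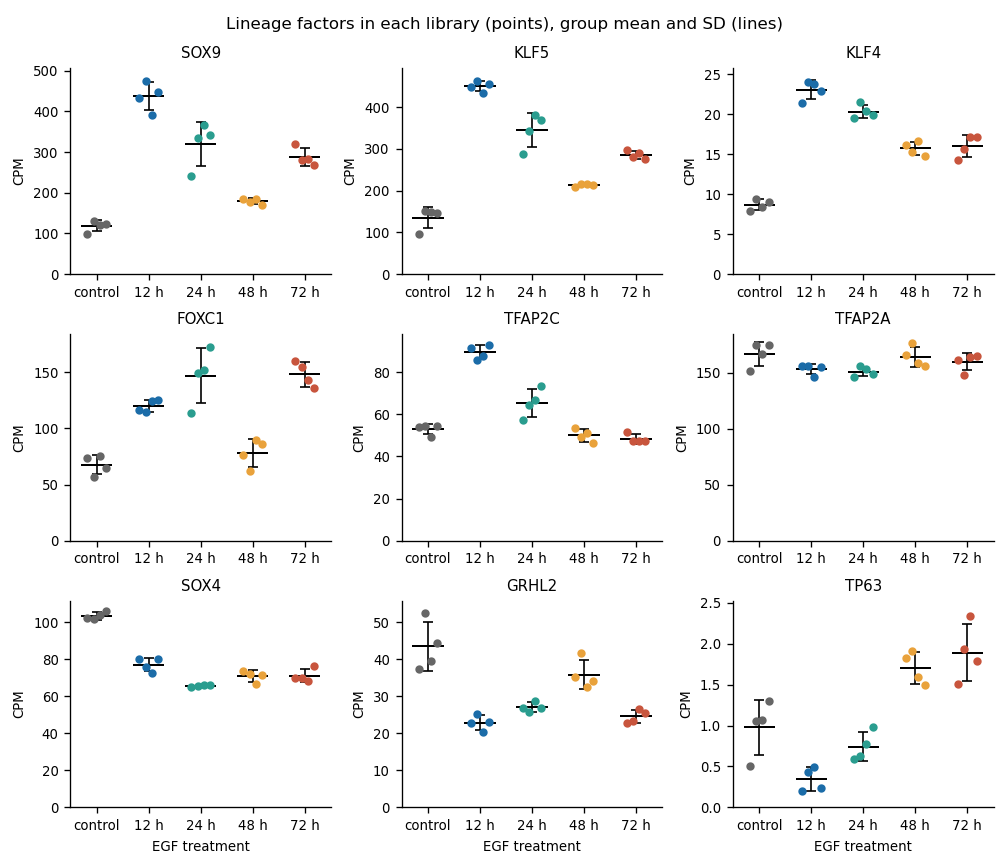
CPM (y axis, from 0, a scale of its own for each gene) of the 9 detected factors in every library, grouped by EGF treatment on the x axis; points are libraries, horizontal lines the mean and vertical bars the SD over 4 libraries. SOX9, KLF5 and KLF4 lie above all controls at all 4 time points, SOX4 below them, and TP63 lies below the controls at 12 h and above them at 48 and 72 h.

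Per kilobase of exon, which allows levels of different genes to be compared, the control held most of KLF5 (34.8 ± 6.55 CPM per kb, SD, n = 4) and SOX9 (30.2 ± 3.51). A middle group followed, with TFAP2A at 20.2 ± 1.29, SOX4 at 17.7 ± 0.353, TFAP2C at 17.6 ± 0.804 and FOXC1 at 17.2 ± 2.17 CPM per kb. The last 3 differed by less than the SD of FOXC1. GRHL2 stood at 7.18 ± 1.11 and KLF4 at 2.37 ± 0.179 CPM per kb, and TP63 was lowest of those detected at 0.131 ± 0.0453. At 12 h, KLF5 reached 116 ± 3.14 and SOX9 111 ± 8.77 CPM per kb, while FOXC1 (30.6 ± 1.38) and TFAP2C (29.8 ± 1.07) had moved above TFAP2A (18.5 ± 0.568) and SOX4 (13.2 ± 0.619). At 72 h, KLF5 (73.6 ± 2.37) and SOX9 (73.1 ± 5.49) were again close, FOXC1 was at 37.8 ± 2.81, and TFAP2A (19.3 ± 0.937), TFAP2C (16.1 ± 0.745) and SOX4 (12.2 ± 0.591 CPM per kb) followed. These orders compare means, and no test was run between genes. They depend on the length used, the merged exons of all transcripts (8274 bases for TFAP2A, 3926 for FOXC1, 3005 for TFAP2C). In CPM, TFAP2A at 12 h (153) was above FOXC1 (120) and TFAP2C (89.6).

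KLF5 and KLF4 were upregulated at every time point. The KLF5 gene lies on chromosome 13 (GRCh38, 73054976 to 73077542, plus strand) in 7 exons after merging transcripts, and KLF4 on chromosome 9 (107484852 to 107490482, minus strand) in 5. KLF5 was at 97.2, 150, 148 and 146 CPM in the 4 control libraries and at 448, 462, 434 and 456 CPM at 12 h. It was then at 288, 344, 381 and 369 CPM at 24 h, at 208, 217, 216 and 215 CPM at 48 h, and at 297, 280, 292 and 277 CPM at 72 h. No EGF library overlapped the controls, of which replicate 1 stood apart on the low side. The log2 fold change was 1.73 ± 0.10 (SE) at 12 h (3.32-fold, adjusted p = 3.2e-13), 1.35 ± 0.10 at 24 h (4.2e-11), 0.66 ± 0.10 at 48 h (8.0e-06) and 1.08 ± 0.10 at 72 h (1.7e-09). Without control replicate 1, all of these calls held. KLF5 thus had the order 12, 24, 72, 48 h and control, and all neighbours in this order differed. The call between 24 and 72 h was close to the threshold (adjusted p = 0.0312). It was lost with library size alone as scaling (adjusted p = 0.10) and without some single libraries. Scaled as in the deposited normalized values, neither this call nor that between 72 and 48 h passed (adjusted p = 0.21 and 0.16).

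KLF4 was less abundant, at 7.89, 9.33, 8.41 and 9.08 CPM in the control and at 21.4, 24.1, 23.8 and 23 CPM at 12 h. It was at 19.5 to 21.5 CPM at 24 h, 14.8 to 16.6 CPM at 48 h and 14.3 to 17.2 CPM at 72 h. All 16 EGF libraries lay above all controls, the lowest at 14.3 CPM. Its log2 fold change was 1.41 ± 0.08 at 12 h (2.65-fold, adjusted p = 3.8e-13), 1.23 ± 0.08 at 24 h (8.4e-12), 0.86 ± 0.08 at 48 h (1.1e-08) and 0.88 ± 0.08 at 72 h (3.0e-09). In the order of its levels (12, 24, 72, 48 h, control), 12 and 24 h did not pass the test (log2 difference 0.18, interval of 24 against 12 h -0.35 to -0.01, adjusted p = 0.0563), nor did 72 and 48 h (interval -0.15 to 0.20). KLF4 therefore had no recovery from 48 to 72 h that passed the test, where KLF5 did (log2 difference 0.42 ± 0.10, adjusted p = 0.0017), although the difference between these 2 changes was not tested. The KLF4 difference between 12 and 24 h passed with DESeq2 size factors in edgeR (adjusted p = 0.035) and with DESeq2's Wald test (0.027). It also passed with only the libraries of these 2 groups (0.049) and without EGF 12 h replicate 1 (0.040) or EGF 24 h replicate 2 (0.047).

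Promoter windows from RefSeq (GRCh38.p14), which cover 300 bases around a start site, were at hand for 6 of the 10 factors, 8 windows in all. Those of KLF5, KLF4 and FOXC1 are shown because these factors were upregulated, and that of SOX4 because it was downregulated at all 4 time points. Capitals mark GC boxes (GGGCGG, or CCGCCC on the other strand), the kind of site that SP and KLF zinc finger factors are known to bind.
KLF5 first start chr13:73054726-73055025 (+ strand): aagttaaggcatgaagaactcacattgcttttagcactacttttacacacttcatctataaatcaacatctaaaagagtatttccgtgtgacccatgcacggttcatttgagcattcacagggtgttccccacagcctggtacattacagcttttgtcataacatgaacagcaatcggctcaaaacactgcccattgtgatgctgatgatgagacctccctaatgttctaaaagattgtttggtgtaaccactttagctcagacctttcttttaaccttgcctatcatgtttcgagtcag
KLF5 second start chr13:73058755-73059054 (+ strand): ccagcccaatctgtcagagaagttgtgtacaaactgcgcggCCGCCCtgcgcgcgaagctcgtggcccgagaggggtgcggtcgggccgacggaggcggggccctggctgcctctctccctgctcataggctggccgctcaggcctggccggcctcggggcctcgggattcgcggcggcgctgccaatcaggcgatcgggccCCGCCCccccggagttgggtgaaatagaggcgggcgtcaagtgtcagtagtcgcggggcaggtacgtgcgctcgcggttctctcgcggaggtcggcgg
KLF4 chr9:107489720-107490019 (- strand): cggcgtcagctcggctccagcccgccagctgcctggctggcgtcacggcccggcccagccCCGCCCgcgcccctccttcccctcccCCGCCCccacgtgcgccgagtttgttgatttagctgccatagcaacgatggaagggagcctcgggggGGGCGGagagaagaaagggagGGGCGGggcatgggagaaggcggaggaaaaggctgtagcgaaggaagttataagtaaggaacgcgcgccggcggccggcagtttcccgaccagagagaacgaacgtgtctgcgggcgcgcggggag
FOXC1 chr6:1609665-1609964 (+ strand): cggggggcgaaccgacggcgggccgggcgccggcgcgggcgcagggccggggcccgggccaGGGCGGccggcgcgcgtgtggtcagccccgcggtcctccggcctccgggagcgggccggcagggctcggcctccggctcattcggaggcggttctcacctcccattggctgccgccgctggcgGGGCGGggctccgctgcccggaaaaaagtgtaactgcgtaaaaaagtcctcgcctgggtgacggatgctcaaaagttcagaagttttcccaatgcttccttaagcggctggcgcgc
SOX4 chr6:21593501-21593800 (+ strand): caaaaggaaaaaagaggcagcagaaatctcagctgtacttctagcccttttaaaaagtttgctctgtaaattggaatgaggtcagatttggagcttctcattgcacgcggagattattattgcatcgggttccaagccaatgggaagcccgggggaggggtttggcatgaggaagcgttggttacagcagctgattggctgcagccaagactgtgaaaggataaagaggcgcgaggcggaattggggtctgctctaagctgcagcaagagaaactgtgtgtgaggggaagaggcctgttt
KLF4 held 4 GC boxes, FOXC1 2, the second KLF5 window 2, and the first KLF5 window and SOX4 none. Such a box is common, present in 45.0% of 35116 promoters of this length. The GC content was 69.0% for KLF4, 72.7% for FOXC1 and 71.3% for the second KLF5 window, against 40.7% for the first one and 49.3% for SOX4. An AP-1 site (TGANTCA, in 7.71% of promoters) and a CArG box (in 1.29%), 2 elements that respond to growth factors, matched in none of the 8 windows. The GRHL site AACCGGTT, in 0.134% of promoters, matched in none either. The ETS core CCGGAA (17.2% of promoters) occurred once, in FOXC1. The AP-2 site GCCNNNGGC (23.2%) occurred 2 times in FOXC1 and 1 time in KLF4, and in neither TFAP2A window. The SOX core ACAAT (27.4%) occurred 2 times in the first KLF5 window and 1 time in a TFAP2A window. The box CACCC (59.9%), a KLF element, had 2 matches in the second KLF5 window, 1 in the first, in FOXC1 and in each TFAP2A window, and none in KLF4, SOX4 or TP63. All motifs were searched on both strands, and a match describes letters in the window and not a bound site.

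The detected SOX factors went in opposite directions. SOX9 lies on chromosome 17 (72121020 to 72126420, plus strand, 3 exons), and SOX4 on chromosome 6 (21592768 to 21598619, plus strand) in a single exon. SOX9 was at 99.0, 131, 122 and 124 CPM in the control and at 433, 474, 392 and 449 CPM at 12 h. It was at 242, 333, 366 and 341 CPM at 24 h, at 184, 177, 186 and 170 CPM at 48 h and at 319, 281, 283 and 268 CPM at 72 h. The libraries at 12 h were highest, those at 48 h lowest among the EGF-treatments, and none overlapped the controls. The log2 fold change was 1.88 ± 0.10 at 12 h (3.68-fold, adjusted p = 1.0e-13), 1.43 ± 0.10 at 24 h (2.1e-11), 0.59 ± 0.10 at 48 h (3.9e-05) and 1.28 ± 0.10 at 72 h (1.3e-10). Among all genes tested, 4.33% had a higher log2 fold change at 12 h, 18.1% at 48 h and 10.7% at 72 h. SOX9 had the same order of groups as KLF5, but 24 and 72 h did not pass the test against each other (log2 difference 0.15, interval of 72 against 24 h -0.37 to 0.06).

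SOX4 was at 102, 102, 104 and 106 CPM in the control and at 80.0, 75.7, 72.5 and 79.9 CPM at 12 h. It was at 64.8 to 66.3 CPM at 24 h, at 66.4 to 73.9 CPM at 48 h and at 68.4 to 76.2 CPM at 72 h. All EGF libraries lay under all controls, in a narrow range. It fell by 0.43 ± 0.06 on the log2 scale at 12 h (0.745-fold, adjusted p = 4.5e-07), by 0.66 ± 0.06 at 24 h (6.8e-10), by 0.54 ± 0.06 at 48 h (3.2e-08) and by 0.54 ± 0.06 at 72 h (1.5e-08). Only 24 against 12 h differed among the EGF-treatments (log2 difference -0.23 ± 0.06, adjusted p = 0.0016), and with library size alone as scaling it did not (-0.09, adjusted p = 0.21). With DESeq2's Wald test, SOX4 was also lower at 48 and 72 h than at 12 h (-0.15 and -0.12, adjusted p = 0.0039 and 0.023). With library size alone it was instead higher at 48 than at 12 h (0.18, adjusted p = 0.0099). At 72 h against 24 h it was higher with both (adjusted p = 0.031 and 0.018). These differences between EGF times thus depended on the processing. Against a limit of 1.5-fold, tested with edgeR's glmTreat, no SOX4 change passed. An antisense gene, AL512380.2, overlaps 2.87% of the SOX4 exon bases and had a mean of 4.10 counts per library. SOX10 lies on chromosome 22 (37970686 to 37987422, minus strand).

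FOXC1 was upregulated at 12, 24 and 72 h but did not pass the test at 48 h. The gene, a single exon, lies on chromosome 6 (1609972 to 1613897, plus strand). It was at 73.2, 56.8, 75.3 and 64.7 CPM in the control, at 117, 114, 124 and 125 CPM at 12 h and at 114, 149, 152 and 173 CPM at 24 h. At 48 h it was at 76.2, 61.8, 89.4 and 85.9 CPM, and at 72 h at 160, 154, 143 and 136 CPM. The libraries at 48 h overlapped the controls, while those at the other 3 time points lay above all of them. The log2 fold change was 0.83 ± 0.12 at 12 h (1.78-fold, adjusted p = 9.3e-07), 1.12 ± 0.12 at 24 h (1.5e-08) and 1.14 ± 0.12 at 72 h (1.0e-08). At 48 h it was 0.22 (interval -0.03 to 0.46, adjusted p = 0.13), and without EGF 48 h replicate 2, the lowest of that group, it was 0.32 and passed (adjusted p = 0.023). In contrast to KLF5 and SOX9, the highest means of FOXC1 were at 72 and 24 h, which did not pass the test against each other (interval -0.23 to 0.26), followed by 12 h, 48 h and control.

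TFAP2C was upregulated early and was back near the control later, while TFAP2A hardly moved. TFAP2C lies on chromosome 20 (56629302 to 56639283, plus strand, 8 exons). It was at 54.1, 54.3, 49.4 and 54.3 CPM in the control, at 91.7, 86.1, 87.8 and 92.9 CPM at 12 h and at 57.4, 64.5, 66.9 and 73.5 CPM at 24 h. At 48 h it was at 53.4, 49.1, 51.1 and 46.5 CPM, and at 72 h at 51.7, 47.2, 47.2 and 47.3 CPM. The 12 h and 24 h libraries lay above all controls, and those at 48 and 72 h overlapped them. The log2 fold change was 0.76 ± 0.07 at 12 h (1.69-fold, adjusted p = 1.2e-09) and 0.31 ± 0.07 at 24 h (1.24-fold, adjusted p = 6.3e-04). With library size alone as scaling, the value at 24 h was 0.16 and missed the threshold (adjusted p = 0.053). At 48 h the interval was -0.23 to 0.07 and at 72 h -0.28 to 0.02. In the order of its means (12, 24 h, control, 48, 72 h), neither control and 48 h nor 48 and 72 h passed the test against each other. With library size alone, TFAP2C was lower than the control at 72 h (-0.21, adjusted p = 0.015).

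TFAP2A, on chromosome 6 (10393186 to 10419659, minus strand, 16 exons), was at 152, 175, 166 and 175 CPM in the control. It was at 146 to 156 CPM at 12 h, 146 to 156 CPM at 24 h, 156 to 176 CPM at 48 h and 148 to 165 CPM at 72 h. The groups overlapped at every time point, with 1, 2, 0 and 1 of the 4 EGF libraries under all controls. The log2 fold change was -0.14 ± 0.06 at 24 h, which passed at an adjusted p of 0.0412. This call was lost when control replicate 2, 3 or 4 or any 1 of the 4 libraries at 24 h was left out (adjusted p between 0.0502 and 0.123). At 12 h the value was -0.12 (interval -0.25 to 0.00, adjusted p = 0.071). It passed without control replicate 1 (-0.16, adjusted p = 0.018) and with library size alone as scaling (-0.41, adjusted p = 2.8e-06), and it was 0.15 when scaled as in the deposited normalized values. The intervals at 48 h (-0.15 to 0.11) and at 72 h (-0.19 to 0.07) held no change beyond 1.5-fold. No neighbours in the order of its 5 group means (control, 48, 72, 12, 24 h) passed the test. Antisense genes overlap TFAP2A exons, TFAP2A-AS2 over 11.4% of their bases (3.05 counts per library on average) and TFAP2A-AS1 over 5.29% (44.7 counts), and whether counting used the strand is not given in the sources used here.

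**Figure D2:**
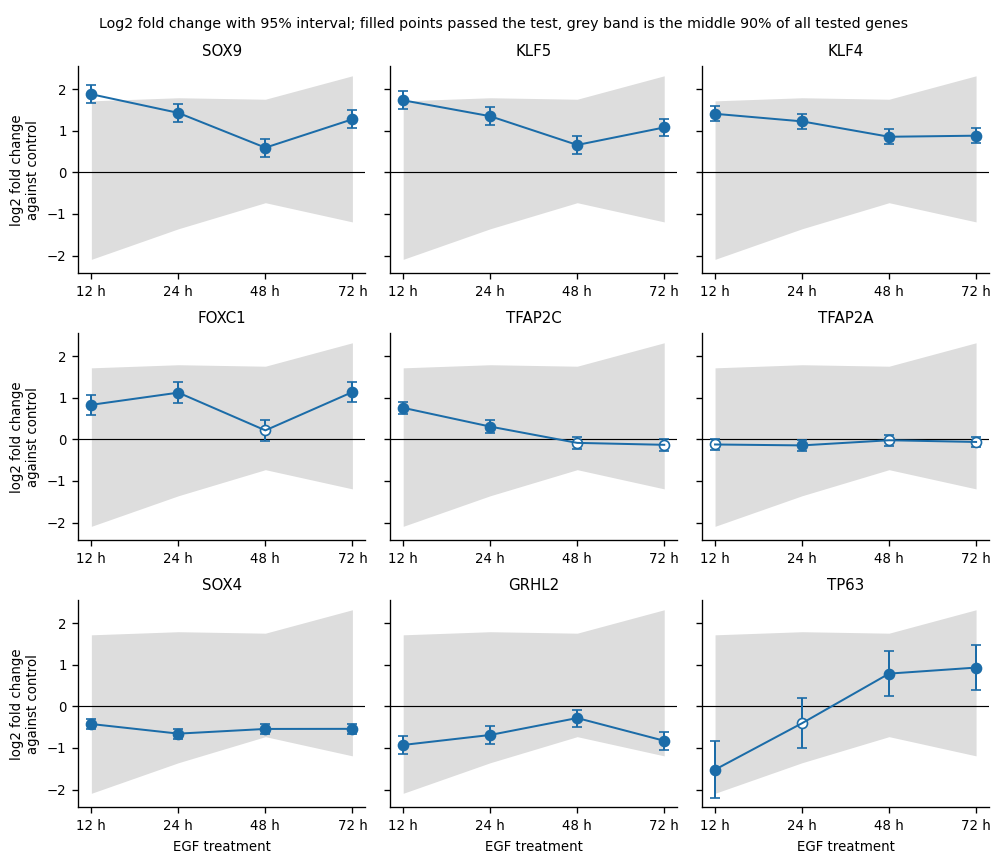
Log2 fold change against the control (y axis) of the 9 detected factors by time of EGF-treatment (x axis), with 95% intervals; filled points passed the test, open points did not, and the grey band holds the middle 90% of all genes tested. SOX9 at 12 h (1.88) and KLF5 at 12 h (1.73) lie above the band, TP63 goes from -1.52 to 0.93, and TFAP2A stays near 0.

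GRHL2 was downregulated at all time points, least at 48 h. The gene lies on chromosome 8 (101492432 to 101669726, plus strand, 16 exons). It was at 37.5, 52.6, 39.6 and 44.4 CPM in the control, at 22.9, 25.3, 20.4 and 23 CPM at 12 h and at 26.8, 25.7, 28.9 and 26.8 CPM at 24 h. At 48 h it was at 35.1, 41.7, 32.6 and 34.2 CPM, and at 72 h at 22.8, 23.3, 26.5 and 25.6 CPM. All libraries at 12, 24 and 72 h lay under all controls, and at 48 h 3 of 4 did. It fell by 0.93 ± 0.10 on the log2 scale at 12 h (0.526-fold, adjusted p = 1.2e-08), by 0.69 ± 0.10 at 24 h (2.0e-06), by 0.28 ± 0.10 at 48 h (0.0196) and by 0.83 ± 0.10 at 72 h (1.1e-07). From the highest mean to the lowest its groups were control, 48, 24, 72 and 12 h, where 24 and 72 h did not pass the test against each other, nor did 72 and 12 h. Among all genes tested, 10.2% had a lower log2 fold change than GRHL2 at 72 h and 19.5% at 12 h. The call at 48 h was lost without control replicate 2 (-0.18, adjusted p = 0.10), without EGF 48 h replicate 3 (-0.23, adjusted p = 0.068) or without EGF 48 h replicate 4 (-0.26, adjusted p = 0.053). When each gene was scaled as in the deposited normalized values, all 4 calls were lost, with log2 fold changes of -0.43, -0.24, 0.06 and -0.72 and adjusted p of 0.45, 0.71, 0.93 and 0.22.

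TP63 was the factor with calls in both directions. It lies on chromosome 3 (189631416 to 189897279, plus strand, 17 exons) and was at the edge of detection, with 4 to 42 counts per library. It had 10, 25, 25 and 27 counts in the control (0.502, 1.05, 1.07 and 1.30 CPM) and 4, 8, 9 and 5 counts at 12 h (0.202, 0.436, 0.497 and 0.239 CPM). It was at 0.593, 0.622, 0.769 and 0.976 CPM at 24 h, at 1.83, 1.91, 1.60 and 1.5 CPM at 48 h and at 1.5, 1.93, 2.35 and 1.79 CPM at 72 h. The libraries at 12 h lay under all controls, those at 24 h among them, and those at 48 and 72 h above all of them. The log2 fold change was -1.52 ± 0.32 at 12 h (0.348-fold, adjusted p = 1.8e-04), 0.79 ± 0.26 at 48 h (1.73-fold, adjusted p = 0.0146) and 0.93 ± 0.26 at 72 h (1.91-fold, adjusted p = 0.0031). At 24 h it was -0.41 with an interval from -1.01 to 0.20 (adjusted p = 0.23). The highest means were at 72 and 48 h, which did not pass the test against each other (adjusted p = 0.69), before control, 24 and 12 h. The call at 48 h was lost without control replicate 1, the library lowest in TP63 among the controls (0.58, adjusted p = 0.056). The counts were summed over the gene, so isoforms of p63 with and without the transactivation domain could not be told apart here.

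Changes between EGF times were tested in the same fit. From 12 to 24 h, 3 factors were higher (TP63, FOXC1, GRHL2) and 4 lower (SOX4, SOX9, KLF5, TFAP2C), where 53.7% of all genes were called (27.9% higher, 25.9% lower). From 24 to 48 h, TP63 and GRHL2 were higher and SOX9, FOXC1, KLF4, KLF5 and TFAP2C lower, where 50.2% of genes were called (25.9% higher, 24.3% lower). The largest of these falls was that of FOXC1, by 0.91 ± 0.11 on the log2 scale (adjusted p = 8.3e-07), followed by SOX9 with 0.84 ± 0.10 (3.6e-07) and KLF5 with 0.69 ± 0.10 (3.9e-06). All 4 libraries at 48 h lay under all 4 at 24 h for each of these 3 genes. None of the 9 tested factors overlapped between these times, including SOX4 and TFAP2A, which did not pass the test. Such a separation therefore sets no factor apart, and its share among all genes was not computed. From 48 to 72 h, SOX9 (0.68 ± 0.10, adjusted p = 1.0e-05), FOXC1 (0.92 ± 0.11, 1.2e-06) and KLF5 were higher and GRHL2 was lower (-0.55 ± 0.10, 1.3e-04), where 35.7% of genes were called (17.9% in each direction). SOX9, KLF5 and FOXC1 thus had a minimum among EGF times at 48 h, and GRHL2 a maximum. When each gene was scaled as in the deposited normalized values, the rise of KLF5 from 48 to 72 h missed the threshold (adjusted p = 0.16), as did both steps of GRHL2 (adjusted p = 0.65 from 24 to 48 h and 0.26 from 48 to 72 h). With library size alone as scaling, SOX4 (0.27, adjusted p = 6.1e-04) and TFAP2A (0.28, adjusted p = 6.6e-04) were also higher at 48 than at 24 h, which made 4 factors higher in place of 2. The median of all genes was then 0.17, and 71.8% of called genes were higher, in place of 51.5%.

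Over wider steps, 48 h against 12 h had 2 factors higher (TP63, GRHL2) and 5 lower (SOX9, FOXC1, KLF4, KLF5, TFAP2C), where 70.3% of genes were called (37.7% higher, 32.5% lower). With library size alone as scaling, which moved the median of all genes to 0.37, SOX4 and TFAP2A (0.40, adjusted p = 4.3e-06) were also higher, making 4. Of called genes, 73.0% were then higher, in place of 53.7%. At 72 h against 12 h, TP63 and FOXC1 were higher and SOX9, KLF4, KLF5 and TFAP2C lower, against 67.6% of genes (35.6% higher, 32.0% lower). With library size alone TFAP2A and GRHL2 were higher too, where the median of all genes was 0.26. There 68.1% of called genes were higher, in place of 52.6%. At 72 h against 24 h, TP63 was higher and KLF4, KLF5 and TFAP2C lower, against 40.2% (20.6% higher, 19.7% lower). The difference in TP63 was 2.31 ± 0.30 on the log2 scale at 48 h against 12 h (4.95-fold, adjusted p = 4.0e-07), 1.34 ± 0.27 at 72 h against 24 h (3.8e-04) and 2.45 ± 0.30 at 72 h against 12 h (5.48-fold, adjusted p = 2.0e-07). Calls close to the threshold were those of FOXC1 (adjusted p = 0.0335) and GRHL2 (0.0473) between 24 and 12 h, of FOXC1 between 72 and 12 h (0.021) and of KLF5 between 72 and 24 h (0.0312). Each of them missed it without some single libraries, with an adjusted p of up to 0.15, 0.15, 0.064 and 0.11 in the same order.

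Ratios of counts within a library do not depend on a scaling of whole libraries. They are given as a description, for 4 pairs of factors chosen after their levels had been seen. Tests of them are given with the processing and are not used as support. SOX9 to SOX4 was 0.969, 1.29, 1.17 and 1.16 in the control and 5.41, 6.27, 5.40 and 5.62 at 12 h. Its mean was 4.87 ± 0.789 at 24 h, 2.53 ± 0.186 at 48 h and 4.06 ± 0.423 at 72 h (SD, n = 4). All 16 EGF libraries lay above all controls, which the choice of a factor that was higher and one that was lower already implies.

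The TFAP2C to TFAP2A ratio was 0.319 ± 0.0258 in the control, 0.585 ± 0.0228 at 12 h and 0.435 ± 0.0441 at 24 h, with no overlap with the control at both times. At 48 and 72 h it was 0.305 ± 0.0206 and 0.303 ± 0.0183, with 1 and 2 of 4 libraries under all controls. KLF5 to KLF4 was 15.5 ± 2.25 in the control, 19.6 ± 1.14 at 12 h (no overlap), 17.0 ± 1.95 at 24 h, 13.6 ± 0.833 at 48 h and 18 ± 2.02 at 72 h. The last 3 overlapped the control. SOX9 to KLF5 was between 0.794 and 1.07 in all 20 libraries, and between 0.686 and 1.37 with the deposited normalized values. Its mean from counts was 0.890 ± 0.0884 in the control and 1.00 ± 0.0496 at 72 h, while SOX9 was 3.68-fold and KLF5 3.32-fold higher at 12 h.

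**Figure D3:**
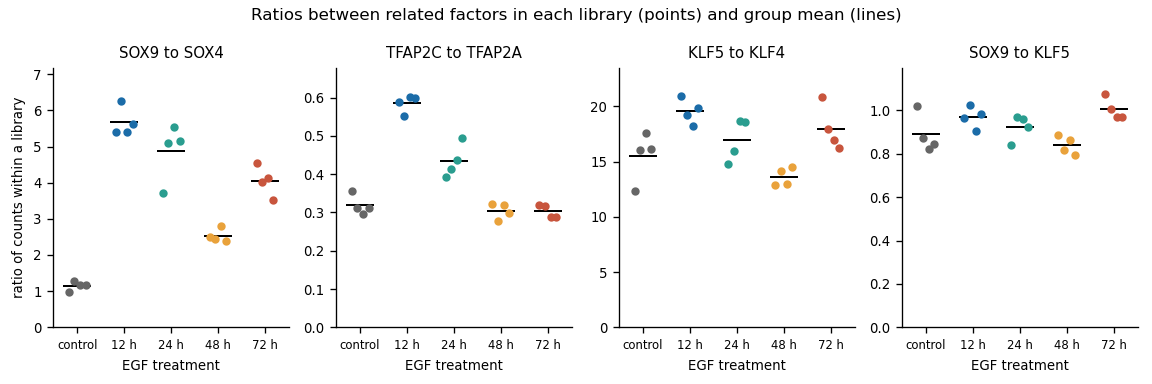
Ratio of the counts of 2 factors within each library (y axis, from 0, a scale of its own for each pair) by EGF treatment (x axis); points are libraries and lines the mean of 4. The SOX9 to SOX4 ratio lies above the controls (0.969 to 1.29) at all time points, TFAP2C to TFAP2A only at 12 and 24 h, and SOX9 to KLF5 lies between 0.794 and 1.07.

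Across the 20 libraries, the factors fell into patterns that the group means above already show. As a description, Pearson's r of log2 CPM was 0.99 between SOX9 and KLF5, 0.94 between KLF4 and KLF5 and 0.91 between SOX9 and KLF4. FOXC1 had 0.81 with SOX9 and -0.88 with GRHL2, and TFAP2C had -0.87 with TP63. The libraries share 5 groups and a common harvest, so these values mostly describe differences between groups. Among 12239 protein-coding candidates, the genes most like SOX9 were DUSP7 (r = 0.99), MAST4 and ERRFI1, where DUSP7 and ERRFI1 encode feedback inhibitors of MAP kinase and EGFR signaling. SOX9, TAB3 and ERRFI1 (r = 0.98) were the genes nearest to KLF5. IDS, KLK10 and SLC43A3 were most like KLF4 (r = 0.98 each), and ATP6V1D (0.97), GCH1 and HSPA13 (0.96 each) most like FOXC1. PSMD11, DNMBP and KMT5A (0.98 each) were nearest to TFAP2C, and P2RY2, AMIGO1 (0.96 each) and NUDT3 (0.95) to GRHL2. IGFBP5 (0.97), XBP1 and PEPD (0.96 each) were nearest to SOX4, and ALDH1A2, MSMB and P2RX7 (0.93 each) to TP63. The lowest likeness was that of TFAP2A, with ARHGAP33 at 0.85, CSAG2 at 0.84 and AC012309.1 at 0.82.

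Relatives of these factors were counted in the same fit. Of all genes tested, 32.9% were higher and 36.5% lower at 12 h, and 29.2% and 29.6% at 24 h. These shares were 24.0% and 21.8% at 48 h, and 30.6% and 31.0% at 72 h. They apply to every list below as counted with TMM, where 47.4%, 49.6%, 52.4% and 49.7% of called genes were higher at the 4 times. With library size alone as scaling, 30.2%, 36.3%, 54.4% and 43.1% of called genes were higher. Of 12 other KLF factors tested, 10 were upregulated and 2 downregulated at 12 h, then 8 and 2 at 24 h, 5 and 1 at 48 h, and 6 and 2 at 72 h. Their median log2 fold change was 1.07 at 12 h. KLF6, a known tumor suppressor and early response gene, went from 68.8 ± 4.14 to 496 ± 13.5 CPM at 12 h (7.21-fold, adjusted p = 2.1e-15), and KLF9 from 3.94 ± 0.654 to 14.2 ± 0.755 CPM at 24 h (3.62-fold). KLF8 was lower at 72 h (40.9 ± 3.07 against 72.4 ± 3.22 CPM, adjusted p = 6.5e-11), and KLF11 slightly so (log2 fold change -0.15, adjusted p = 0.028), a call that was lost with DESeq2 size factors in edgeR (adjusted p = 0.0598). At 12 h, KLF11 was higher (1.79-fold, adjusted p = 6.2e-12), and by less at 24 h (1.12-fold, adjusted p = 0.015). Of 7 other SOX factors tested, 3 were upregulated and 2 downregulated at 12 h and at 24 h, 1 and 3 at 48 h, and 3 and 3 at 72 h. SOX13 was 2.62-fold higher at 12 h (125 ± 6.08 against 47.5 ± 6.21 CPM, adjusted p = 7.0e-12), and SOX11 was at 10.6 ± 1.12 against 29.3 ± 3.29 CPM at 72 h (0.362-fold, adjusted p = 2.4e-12). SOX7 was higher at 12 h (log2 fold change 0.42, adjusted p = 0.0186) and lower at 48 h (-0.48, adjusted p = 0.0166), and the first of these calls was lost with library size alone as scaling (adjusted p = 0.44).

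Of 4 other factors tested from the families of TFAP2A, GRHL2, FOXC1 and TP63, 1 was upregulated and 2 downregulated at 12 and 24 h, 0 and 3 at 48 h, and 0 and 2 at 72 h. Scaled by library size alone, 0 and 3 were called at each of 12, 24 and 72 h. GRHL3, a close relative of GRHL2 in epidermal differentiation, was at 3.72 ± 0.233 against 18.7 ± 2.55 CPM at 48 h (0.199-fold, adjusted p = 2.0e-13). GRHL1 was higher at 24 h by 0.22 on the log2 scale (adjusted p = 0.0195), which did not hold with library size alone (0.08, adjusted p = 0.40). Of 16 other epithelial and luminal factors tested, 5 were upregulated and 9 downregulated at 12 and at 24 h, 4 and 11 at 48 h, and 4 and 10 at 72 h. These were 3 and 11 at 12 h and 2 and 9 at 24 h with library size alone as scaling. RUNX1 was higher at 12 h (162 ± 12.0 against 51.7 ± 2.50 CPM). ID4 (6.49 ± 0.522 against 37.3 ± 7.25 CPM) and ELF5 (0.373 ± 0.0676 against 1.83 ± 0.191 CPM), a factor of luminal progenitors, were lower at 12 h. Of 3 EMT transcription factors tested, 3 were upregulated at 12 h and 2 at each later time, and none was downregulated. SNAI1 was at 6.07 ± 0.410 against 1.48 ± 0.521 CPM at 12 h (adjusted p = 1.1e-08) and TWIST2 at 4.49 ± 1.24 against 2.70 ± 0.164 CPM (adjusted p = 9.0e-04). SNAI1 was also higher at each later time. TWIST2 did not pass the test at 24, 48 or 72 h (adjusted p = 0.18, 0.56 and 0.19). The other EMT factor called at the later times is not among the genes named here.

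**Figure D4:**
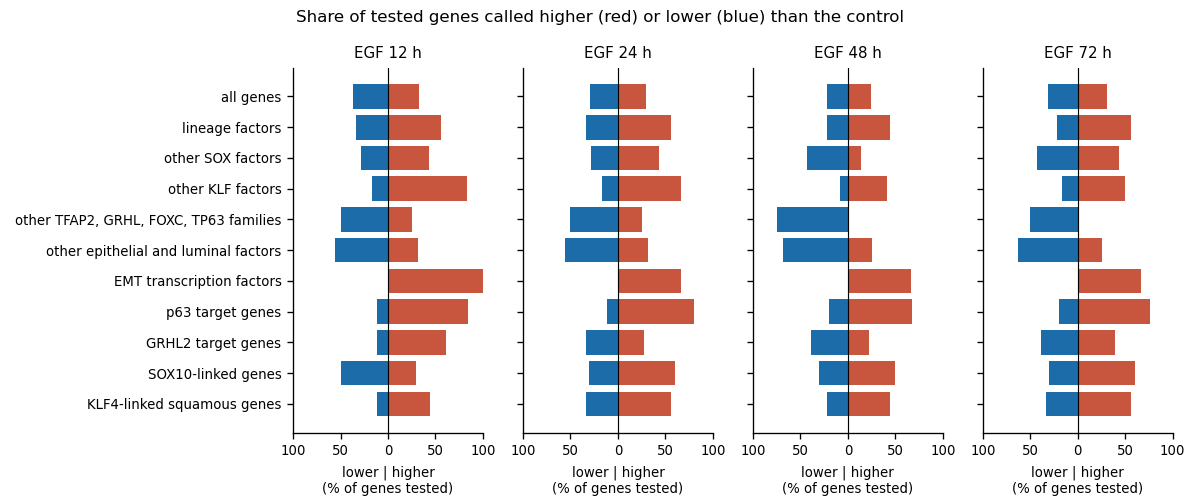
Share of the tested genes of each list called higher (red, to the right) or lower (blue, to the left) than the control at each EGF time (x axis, percent of genes tested), with all 16522 genes on top. At 12 h, 21 of 25 p63 target genes, 10 of 12 other KLF factors and 5 of 16 other epithelial and luminal factors were called higher. Of all genes, 32.9% were. The lists were chosen with earlier results of these data known, so an excess over all genes is a description only.

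Genes known as targets of these factors or linked to them were counted in the same way. Of all genes tested, 69.4%, 58.8%, 45.8% and 61.6% were called in either direction at 12, 24, 48 and 72 h. Of 25 basal cell genes known as p63 targets, 21 were upregulated and 3 downregulated at 12 h, 20 and 3 at 24 h, 17 and 5 at 48 h, and 19 and 5 at 72 h. At 12 h, when TP63 itself was lowest, KRT6A was at 1118 ± 39.7 against 2.58 ± 0.559 CPM (436-fold, adjusted p = 2.5e-23) and KRT6B at 756 ± 18.3 against 6.29 ± 0.352 CPM (120-fold, adjusted p = 1.4e-24). These keratins of stressed and proliferating epidermis are near-identical copies, so the split of reads between them is uncertain. FAT2 was lower at 12 h (1.02 ± 0.141 against 3.00 ± 0.807 CPM, adjusted p = 2.5e-06) but higher at 48 h (1.43-fold, adjusted p = 0.035) and 72 h (1.51-fold, adjusted p = 0.011). DLX3 was lower at 72 h (2.46 ± 0.639 against 6.40 ± 1.77 CPM, adjusted p = 3.9e-06). Of 18 epithelial genes known as GRHL2 targets, 11 were upregulated and 2 downregulated at 12 h, 5 and 6 at 24 h, 4 and 7 at 48 h, and 7 and 7 at 72 h. With library size alone as scaling, the counts were 10 and 6, 3 and 6, 4 and 6, and 4 and 8. CDH3, or P-cadherin, was at 102 ± 3.23 against 28.8 ± 4.51 CPM at 12 h (3.56-fold, adjusted p = 4.3e-14), and LAD1 at 125 ± 9.91 against 53.9 ± 8.12 CPM, although LAD1 was lower at 48 h (log2 fold change -0.27, adjusted p = 0.027). The tight junction genes CLDN3 (8.96 ± 0.669 against 18.6 ± 4.82 CPM at 24 h, adjusted p = 3.7e-05) and CGN (4.48 ± 0.397 against 7.62 ± 1.58 CPM at 72 h, adjusted p = 2.7e-04) were lower.

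Of 10 tested genes linked to SOX10, which itself was not detected, 3 were upregulated and 5 downregulated at 12 h, 6 and 3 at 24 h, 5 and 3 at 48 h, and 6 and 3 at 72 h. MIA, a secreted protein of melanoma cells and cartilage, had at most 2 counts in any control library. Against a limit of 3 counts in each control library, MIA rose at least 4.86-fold by 12 h and at least 22.4-fold by 72 h, when it reached 3.07 ± 0.734 CPM. ROPN1, a gene expressed in testis and in basal-like breast cancer, was at 12.0 ± 0.558 against 1.69 ± 0.353 CPM at 72 h (7.15-fold, adjusted p = 1.8e-14). Its near-identical copy ROPN1B was lower at 12 h (0.975 ± 0.319 against 2.34 ± 0.194 CPM, adjusted p = 3.0e-06) but higher at 24 h (1.54-fold), 48 h (2.57-fold) and 72 h (4.13-fold, adjusted p = 3.0e-11). The split of reads between the copies is uncertain. VGLL1, a partner of TEAD factors in basal-like cells, was at 310 ± 13.2 against 667 ± 14.8 CPM at 24 h (0.465-fold, adjusted p = 1.0e-14). Of 9 tested squamous differentiation genes linked to KLF4, 4 were upregulated and 1 downregulated at 12 h (4 and 3 with library size alone as scaling), 5 and 3 at 24 h, 4 and 2 at 48 h, and 5 and 3 at 72 h. The cornified envelope precursors SPRR3 (265 ± 19.3 against 0.736 ± 0.201 CPM, 361-fold, adjusted p = 4.3e-22) and SPRR1B (111 ± 3.71 against 0.527 ± 0.0581 CPM, 210-fold, adjusted p = 2.6e-23) were higher at 72 h. KRT4 (3.61 ± 0.641 against 11.6 ± 1.85 CPM, adjusted p = 4.5e-11) and CNFN (5.91 ± 1.09 against 13.9 ± 3.23 CPM, adjusted p = 4.5e-06) were lower at 24 h. These lists, chosen with earlier results of these data known, describe gene groups by their counts, and nothing particular to a list was tested.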

How the data were processed

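The deposited tables hold, for each gene and library, estimated counts that the authors rounded to whole numbers. They also hold normalized values, a score on the scale of counts made by the authors with DESeq2 in the SARTools pipeline. Per the labels the genome build was hg38 and libraries were made with the Lexogen Corall mRNA kit. The aligner, the counter, the annotation, use of the strand and handling of molecular identifiers are not given in the sources used here, so counts may hold PCR duplicates. The deposited fold changes and p-values were not used. All tables hold the same counts, and 1 was used.

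The 10 factors and all gene lists were chosen with earlier results of these data known. Counts were analyzed in edgeR 4.0.16 (R 4.3.3) with filterByExpr, TMM and a robust quasi-likelihood fit with 1 mean per group over all 20 libraries. Every factor is named. From each list, up to 2 genes with the highest and 2 with the lowest called log2 fold changes at any 1 time were named, among genes with a mean of at least 1 CPM, except that 2 of these genes are not reported here. Likeness is Pearson's r of log2 CPM (prior count of 2) among protein-coding genes with a mean of at least 1 CPM. Fold changes used a prior count of 0.125. Simulated data for 12 h against the control (16042 genes) had only 100 genes changed at each level, equally up and down. They gave 86 of 100 calls at a log2 change of 1, 96 of 100 at 1.5, and 9 false calls. In the data themselves 69.4% of genes were called, so these rates need not hold there. The variance between replicates was 3.53 to 57.5 times the sampling noise over 30 pairs. The replicates were of 1 line handled together, so p-values measure the spread between these samples only. Gene positions and exon lengths came from GENCODE 29, promoters from RefSeq. Log2 ratios within a library were compared with the control by 16 exact permutation tests. The smallest possible p was 0.0286. After Benjamini-Hochberg adjustment no ratio passed, with a lowest value of 0.0653. The closing section gives alternatives: other scalings, filters, DESeq2 1.42.0, glmTreat, a replicate block, factors per gene, 8 libraries only, and each library left out.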

Additional observations from a re-analysis of the deposited data

Results flagged for a closer look

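TP63 differed between EGF times in the direction of its change. Against the control it was lower at 12 h (log2 fold change -1.52) and higher at 48 h (0.79) and 72 h (0.93), and the direct differences passed edgeR's quasi-likelihood test, with 2.31 at 48 h against 12 h (adjusted p = 4.0e-07) and 2.45 at 72 h against 12 h (adjusted p = 2.0e-07). All 4 libraries at 48 h and at 72 h lay above all 4 at 12 h, which had 4 to 9 counts of TP63 each.

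In 4 of the 45 groups of 4 libraries, 1 library lay far from the other 3 by Dixon's criterion, where chance gives about 2.2. KLF5 was at 97.2 CPM in control replicate 1 and at 146 to 150 CPM in the other 3. TFAP2A was at 146 CPM in EGF 12 h replicate 3 and at 155 to 156 CPM in the others. TFAP2C was at 49.4 CPM in control replicate 3, where the others were at 54.1 to 54.3 CPM, and at 51.7 CPM in EGF 72 h replicate 1, where the others were at 47.2 to 47.3 CPM.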

How the results depend on the processing

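Of 644 values for the factors against the control under all alternatives, 600 kept their direction and their side of the threshold, 31 lost the call, 6 gained one and 7 changed sign. Differences between EGF times were less stable. Of 966 such values, 850 kept both, 64 lost the call, 29 gained one and 23 changed sign. No call of SOX9, KLF4, KLF5 or SOX4 against the control was lost or turned outside glmTreat. Against a 1.5-fold change, glmTreat called 7, 4, 1 and 5 factors at 12, 24, 48 and 72 h against the control. Of all 16522 genes it called 5753, 3474, 1916 and 3899 there. It called 0 factors for 24 against 12 h, 3 for 48 against 24 h and 1 for 72 against 48 h. Over all genes these were 2199, 1818 and 883. It called 4 factors for 48 against 12 h, 2 for 72 against 12 h and 1 for 72 against 24 h. Over all genes these were 5628, 4672 and 1106. With factors per gene from the deposited values, 2 factors were called for 72 against 48 h and 2 for 72 against 24 h. Of all 16522 genes, 4165 and 4871 were called.

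Of the values whose sign turned, only GRHL2 at 48 h against control had passed the test, and the cause was not tested. With library size only, the log2 difference was 0.12 for TFAP2A at 24 against 12 h, -0.086 for SOX4 and -0.062 for KLF4 at 72 against 48 h, 0.18 for SOX4 at 48 against 12 h (adjusted p = 0.0099) and 0.092 for SOX4 at 72 against 12 h. With upper quartile factors, these 5 were 0.094, -0.040, -0.015, 0.063 and 0.024. With at least 10 counts in every library, which left TP63 untested, TFAP2A was at 0.017 for 48 h against control and 0.018 for 24 against 12 h. With factors per gene, TFAP2A was at 0.15 at 12 h and 0.015 at 48 h against control, -0.13 for 48 against 12 h and -0.17 for 72 against 12 h. GRHL2 was then at 0.064 for 48 h against control (adjusted p = 0.93) and -0.29 for 72 against 12 h, and TP63 at -0.47 for 72 against 48 h. With deposited values, the log2 ratio of SOX9 to KLF5 at 12 h was -0.19.

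Leaving out 1 library at a time gave a range of -0.065 to 0.0032 for TFAP2A at 48 h against control, -0.095 to 0.099 for FOXC1 at 72 against 24 h, -0.030 to 0.021 for SOX4 and -0.0086 to 0.092 for KLF4 at 72 against 48 h. FOXC1 missed the threshold for 24 against 12 h without EGF 12 h replicate 1 or 2 or EGF 24 h replicate 2, 3 or 4 (adjusted p 0.067 to 0.15), and for 72 against 12 h without EGF 12 h replicate 1 or 2 or EGF 72 h replicate 1 or 2 (0.052 to 0.064). GRHL2 missed it for 24 against 12 h without EGF 12 h replicate 1, 3 or 4 or any library at 24 h (0.053 to 0.15), and KLF5 for 72 against 24 h without EGF 24 h replicate 2, 3 or 4 or any library at 72 h (0.051 to 0.11). Counts of called factors were 8 to 9, 7 to 8, 5 to 7 and 7 to 7 at 12, 24, 48 and 72 h against control. With all libraries, 69.4%, 58.8%, 45.8% and 61.6% of all genes were called.

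With a replicate block, all 90 values kept their direction and side, with 8, 8, 6 and 7 factors called against the control. Of all 16522 genes, 11577, 9868, 7829 and 10310 were called there. Same-numbered deviations had a median correlation of 0.01 over 40 pairs, against -0.0042 over 120 pairs with different numbers. Of 20 libraries, 8 correlated best with their own number. These values cannot decide whether the numbers mark paired samples. TP63, with 4 to 42 counts per library, is the factor whose precision is most limited by depth.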
